A study of Mus musculus with 20 samples.

Results

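Chaperones are proteins that bind other proteins while these fold, move between compartments or are taken apart, and the heat shock proteins and DnaJ proteins are the largest chaperone families of the mouse. The genes described here are the 72 whose symbol begins with Hspa, Hspb, Hspd, Hspe, Hsph, Hsp90, Dnaja, Dnajb or Dnajc, out of 35204 genes in the deposited count table. They were chosen by name, with earlier results of these data known, and 14 further symbols that mark pseudogenes were left out. The 72 comprised 14 Hspa and Hsph genes (the Hsp70 and Hsp110 families), 3 Hsp90 genes, the 2 mitochondrial chaperonin genes Hspd1 and Hspe1, 8 Hspb genes (the small heat shock proteins) and 45 DnaJ genes, namely 4 Dnaja, 13 Dnajb and 28 Dnajc genes.

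Ileum, the last part of the small intestine, was taken from 20 female C57Bl6 mice after 3 weeks on a defined amino acid diet, and RNA from whole tissue was sequenced. Mice received either the control diet (CD) or a tryptophan-deficient diet (TDD). They either remained specific pathogen-free (SPF) without antibiotics or were given a cocktail of ampicillin, vancomycin, gentamycin, metronidazole and neomycin (CD+ABX and TDD+ABX). Each of the 4 groups held 5 mice, all of 1 sex and strain with no genetic change named, and the study asked how the diet changed the tissue with and without an intact microbiota. Because whole tissue was sequenced, fewer cells of a type and less RNA per cell cannot be told apart in any value given below.

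Hsp70 proteins bind exposed stretches of unfolded proteins and release them in cycles of ATP hydrolysis. DnaJ proteins, also called Hsp40 proteins, hand substrates to Hsp70 and stimulate its ATPase, and Hsp110 proteins such as Hsph1 exchange the nucleotide so that the cycle can start again. Hsp90 proteins act later, on substrates that are already partly folded, and small heat shock proteins hold unfolded proteins without using ATP. Each large family has members for the cytosol, for the endoplasmic reticulum, where secreted proteins fold, and for the mitochondria. The cytosolic genes are classically under the heat shock factor Hsf1, which binds repeats of the unit GAA and its reverse complement in promoters. The genes of the endoplasmic reticulum are classically under factors of the unfolded protein response, which bind the endoplasmic reticulum stress element. The ileum holds secretory cells, among them goblet and Paneth cells, for which the folding capacity of the endoplasmic reticulum is known to matter.

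Promoter sequences are printed here only for carriers of these elements that changed in the results below, which not every carrier did. They are RefSeq sequences of build GRCm38.p6 and run from 250 bases before to 50 bases after the annotated start, 5′ to 3′ on the strand of the gene. Of the 72 genes, 58 had a promoter in the RefSeq table used. Both strands were searched for the endoplasmic reticulum stress element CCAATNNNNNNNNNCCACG, and capitals mark each match. This element occurred in 0.119% of the 32851 promoters of all genes and in those of 3 chaperone genes, Hspa5 (chr2:34771840-34772139, plus strand), Hsp90b1 (chr10:86705395-86705694, minus strand, with 2 matches) and Dnajc3 (chr14:118937682-118937981, plus strand).
Hspa5: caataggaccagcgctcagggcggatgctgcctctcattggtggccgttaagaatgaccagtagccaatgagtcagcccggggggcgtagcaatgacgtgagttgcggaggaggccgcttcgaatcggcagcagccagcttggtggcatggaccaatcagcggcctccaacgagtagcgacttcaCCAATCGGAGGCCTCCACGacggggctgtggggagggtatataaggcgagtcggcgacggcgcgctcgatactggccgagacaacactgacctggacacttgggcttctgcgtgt
Hsp90b1: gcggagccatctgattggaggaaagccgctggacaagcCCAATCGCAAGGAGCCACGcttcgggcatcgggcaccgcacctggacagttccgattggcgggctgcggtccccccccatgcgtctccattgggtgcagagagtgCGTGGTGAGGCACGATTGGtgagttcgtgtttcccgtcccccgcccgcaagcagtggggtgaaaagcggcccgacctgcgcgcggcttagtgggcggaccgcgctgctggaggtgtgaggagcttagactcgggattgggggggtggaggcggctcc
Dnajc3: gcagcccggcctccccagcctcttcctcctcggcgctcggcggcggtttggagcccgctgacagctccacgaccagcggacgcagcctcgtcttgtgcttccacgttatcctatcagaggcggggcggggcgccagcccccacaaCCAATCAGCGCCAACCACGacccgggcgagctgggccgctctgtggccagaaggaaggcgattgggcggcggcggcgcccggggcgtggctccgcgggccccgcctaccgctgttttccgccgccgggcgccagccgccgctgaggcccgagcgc

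The heat shock element was searched as 3 units, GAANNTTCNNGAA or TTCNNGAANNTTC, which are the 2 strands of 1 pattern and can overlap each other. It occurred in 0.603% of all promoters and in those of 4 chaperone genes, Hsph1 (chr5:149636266-149636565, minus strand), Hspe1 (chr1:55087898-55088197, plus strand), its neighbour Hspd1, which starts from the same stretch in the opposite direction, and Dnajb6. Capitals mark the matches again, and in Hspe1 2 matches overlap. The shorter pattern GAANNTTC, which is contained in the longer one and reads the same on both strands, occurred in 7.86% of all promoters and in those of 14 chaperone genes, among them Dnaja1, Hspa1a, Hspa1b and Hspb1. A match describes the letters in this window and was not tested for binding.
Hsph1: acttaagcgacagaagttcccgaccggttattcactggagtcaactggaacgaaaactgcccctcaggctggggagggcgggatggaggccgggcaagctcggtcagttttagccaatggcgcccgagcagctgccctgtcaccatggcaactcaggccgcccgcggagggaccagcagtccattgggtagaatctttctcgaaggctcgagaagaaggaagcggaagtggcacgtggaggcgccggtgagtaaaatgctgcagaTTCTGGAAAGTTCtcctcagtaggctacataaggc
Hspe1: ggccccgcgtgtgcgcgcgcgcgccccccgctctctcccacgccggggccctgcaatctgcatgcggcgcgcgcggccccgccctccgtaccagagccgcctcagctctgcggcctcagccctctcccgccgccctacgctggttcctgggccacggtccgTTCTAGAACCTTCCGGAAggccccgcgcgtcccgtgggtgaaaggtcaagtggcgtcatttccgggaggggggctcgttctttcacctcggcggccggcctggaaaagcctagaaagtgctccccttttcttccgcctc

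Total counts per mouse ranged from 36676963 to 58662617. Levels are given as TMM-scaled CPM, counts relative to the size of the library, which compare 1 gene between mice, or as TPM, which are also scaled by transcript length and can be compared between genes. Epithelial markers were abundant in every group, with a summed level of 12300 to 25930 CPM over 8 genes. Fabp6, the bile acid binding protein that marks the distal ileum, was however near 0 in the SPF mice (0.238 to 3.91 CPM) and at 2.65 to 144 CPM in the ABX-treated mice. Smooth muscle markers varied from 547 to 2779 CPM in sum between single mice of the CD group. B cell markers, which mark lymphoid follicles, were over 60 CPM in sum in CD mice 2 and 3, TDD mice 2 to 5 and TDD+ABX mouse 5, and under 25 CPM in all others.

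The chaperone genes spanned a wide range of levels (plot of mean TPM by class). Hspa8, the constitutive cytosolic Hsp70, had the highest level, with a mean of 1190 TPM over the 20 mice (714 to 2040) and 25.8% of the TPM of all 72 genes. It was followed by Hsp90ab1, the constitutive cytosolic Hsp90 (454 TPM), and by the endoplasmic reticulum forms of Hsp70 and Hsp90, Hspa5 (BiP, 427 TPM) and Hsp90b1 (Grp94, 338 TPM). The lowest and highest mice of these 3 genes overlapped, at 313 to 675, 248 to 621 and 232 to 437 TPM. The 10 genes with a mean over 100 TPM further included Hspd1 (203 TPM), Dnaja1 (199 TPM), Dnajc7 (194 TPM), Hsp90aa1 (149 TPM), Hspe1 (135 TPM) and Hspa9 (119 TPM).

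**Figure D1:**
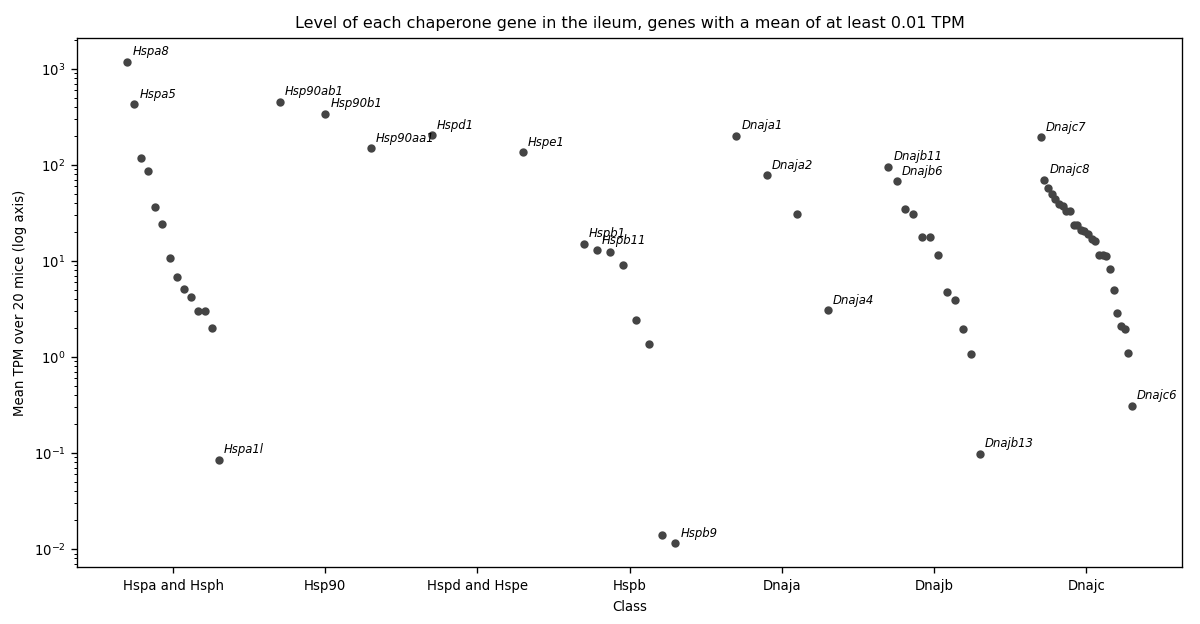
Mean level over the 20 mice of the chaperone genes with at least 0.01 TPM, in TPM on a log axis, with the genes grouped by class on the horizontal axis and ordered by level within a class. Hspa8 stood highest at 1190 TPM, the highest genes of the other large classes lay between 95.3 TPM (Dnajb11) and 454 TPM (Hsp90ab1), and the small heat shock proteins were at 15.1 TPM or less.

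Among the DnaJ genes, Dnaja1, Dnajb11 (95.3 TPM) and Dnajc7 had the highest level of their class. Dnaja4 (3.06 TPM) was the lowest Dnaja gene, Hsp90aa1 the lowest Hsp90 gene and Hspe1 the lower of the mitochondrial pair. Hspb1 (15.1 TPM) was the highest of the small heat shock proteins. The stress-inducible cytosolic Hsp70 genes Hspa1a and Hspa1b were low, at 3.01 and 6.74 TPM. These 2 genes are near-identical copies, so that the division of reads between them is uncertain. The count table held for Hspa4l exactly 2 times the sum of its transcripts, which leaves its fold changes as they are but not its CPM level.

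Of the 72 genes, 7 did not reach 0.5 CPM in any mouse and were not tested. Dnajb8, the lowest of its class, had 0 counts in every mouse, and Dnajb13, Dnajc5b, Dnajc5g, Hspa1l, Hspb3 and Hspb9 had mean levels of 0.0989 TPM or less. The lowest Dnajc and Hspb genes by mean were thus Dnajc5g (0.0039 TPM) and Hspb9 (0.0115 TPM), and the lowest Hspa gene was Hspa1l (0.0853 TPM). The other 65 genes were tested, and 64 of them reached 0.5 CPM in at least 1 mouse of every group. The exception was Hspb2, which stayed under that level in the TDD mice.

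Summed over all 72 genes, chaperone transcripts took 3730 ± 166 TPM in CD mice and 3960 ± 437 TPM in TDD mice (SD, n = 5 each). With ABX the sums were 5100 ± 357 TPM on CD and 5620 ± 814 TPM on TDD (SD, n = 5 each). The lowest ABX-treated mouse, at 4670 TPM on TDD, lay above the highest SPF mouse, at 4470 TPM on TDD. The Hspa and Hsph class stood at 1400 ± 52.1 TPM on CD and 2200 ± 209 TPM on CD+ABX, and at 1590 ± 256 TPM on TDD and 2480 ± 484 TPM on TDD+ABX. These sums are given without a test. The small heat shock proteins summed to 48.4 to 60.3 TPM in the 4 group means, with SDs of 9.86 to 22.4 TPM.

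Differences were tested gene by gene with edgeR's quasi-likelihood test, with all 4 groups in 1 fit, and q is the p-value adjusted over the 16306 genes tested. A log2 fold change is given with its standard error (SE). Because CD mice serve in the diet comparison without ABX and in the ABX comparison on CD, and likewise TDD, CD+ABX and TDD+ABX mice each serve in 2 comparisons, the comparisons are not independent of each other.

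With ABX on CD, 13 of the 65 chaperone genes rose at q under 0.05 and 1 fell, where 5.26% of all genes tested rose and 7.37% fell. The genes that rose were those of the endoplasmic reticulum (Hspa5, Hsp90b1, Dnajb11, Dnajc3 and Dnajb9), those of the cytosol (Hsph1, Hspa8, Hspa4, Hsp90aa1, Dnaja1 and Dnajb2) and the mitochondrial pair Hspd1 and Hspe1. Of these, 2 were at least 2-fold higher (Hspa5 and Hsph1), against 2.25% of all genes in either direction. The median log2 fold change was 0.129 over the 65 genes and -0.005 over all genes. In 15 genes the 5 CD+ABX mice did not overlap the 5 CD mice, each time with ABX higher, where 9.74% of all genes did not overlap in either direction.

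With ABX on TDD, 16 of the 65 genes rose at q under 0.05 and 0 fell, where 7.14% of all genes rose and 8.22% fell. At an unadjusted p under 0.05, 5 genes were lower, as were 16.6% of all genes, and the count that fell was 1 by DESeq2 (Dnajb9) and 0 by limma-voom and by limma on TPM. Of the 16, Hsph1 and Hspa1b were at least 2-fold higher, against 1.63% of all genes in either direction. The median was 0.079 over the 65 genes and -0.028 over all genes. The mice did not overlap in 8 genes, of which 7 were higher with ABX, where 11% of all genes did not overlap in either direction.

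**Figure D2:**
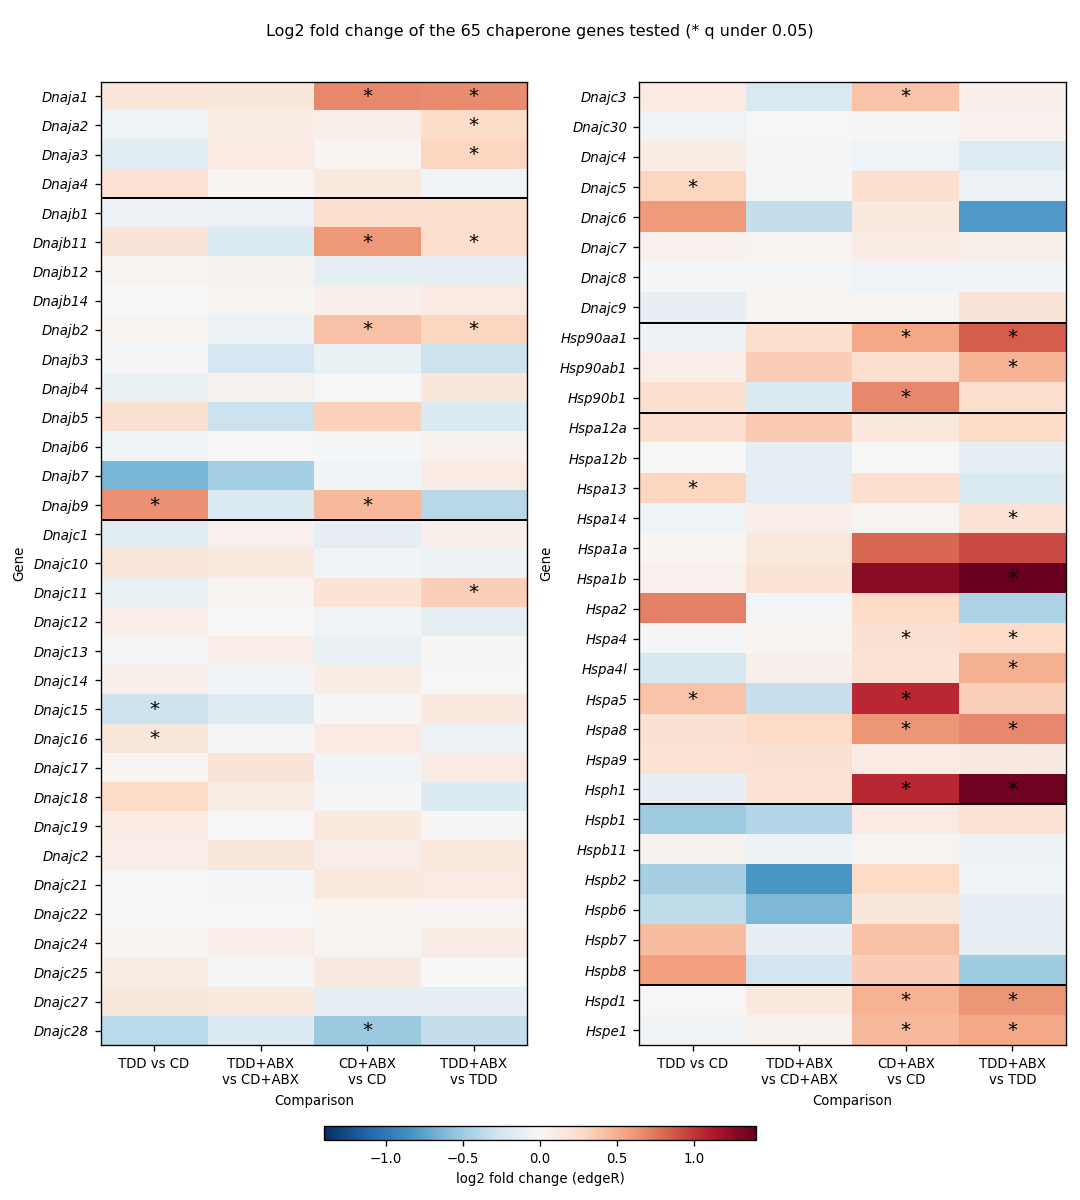
Log2 fold change of the 65 tested chaperone genes (vertical axes, grouped by class) in the 4 comparisons (horizontal axes), from edgeR, with red for higher and blue for lower in the first-named group and an asterisk at q under 0.05. The 2 ABX columns carry 14 and 16 asterisks, the diet column without ABX 6 and the diet column with ABX 0.

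Hspa5 encodes BiP, the Hsp70 of the endoplasmic reticulum. Hspa5 was at 436, 542, 405, 474 and 500.4 CPM in the 5 CD mice, 560.3, 785, 589, 589.8 and 582 CPM in the TDD mice, 937, 957, 943, 923 and 1122 CPM in the CD+ABX mice and 825, 980.3, 836, 695 and 570.2 CPM in the TDD+ABX mice. All CD+ABX mice lay above all CD and TDD mice, all TDD mice lay above all CD mice, and TDD+ABX mice overlapped the TDD mice. With ABX on CD the log2 fold change was 1.05 ± 0.13 (SE, q = 8.64e-05), and on TDD it was 0.33 ± 0.13 (SE, q = 0.0796).

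Hsp90b1 encodes the Hsp90 of the same compartment. Hsp90b1 was at 477, 592, 552, 528 and 567 CPM in the 5 CD mice, 556, 729.5, 614, 656 and 651 CPM in the TDD mice, 897, 852, 831, 853 and 899.9 CPM in the CD+ABX mice and 802, 877, 843, 680.1 and 587 CPM in the TDD+ABX mice. CD+ABX mice stood clear of both SPF groups, whereas TDD+ABX mice 4 and 5 fell within the range of the TDD mice. The log2 fold change with ABX was 0.67 ± 0.10 on CD (SE, q = 0.000409) and 0.24 ± 0.10 on TDD (SE, q = 0.101).

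The DnaJ proteins of the endoplasmic reticulum that serve Hspa5 include Dnajb11 (ERdj3), Dnajc3 (p58IPK) and Dnajb9 (ERdj4). Dnajb11 was at 95.5, 110.1, 102, 108 and 117 CPM in the 5 CD mice, 119, 134, 109.7, 117 and 120.4 CPM in the TDD mice, 157, 150.5, 168, 151 and 185 CPM in the CD+ABX mice and 146, 166, 142, 131 and 124 CPM in the TDD+ABX mice. With ABX it rose on CD by 0.61 ± 0.08 (SE, q = 0.000169) and on TDD by 0.24 ± 0.08 on the log2 scale (SE, q = 0.0481). The value on TDD passed narrowly and was lost in 17 of 34 alternative settings.

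Dnajc3 was at 129.7, 123, 129.8, 137 and 136 CPM in the 5 CD mice, 131, 164, 139, 139 and 139 CPM in the TDD mice, 177, 173, 161, 166 and 186 CPM in the CD+ABX mice and 158, 170.4, 156, 133 and 127 CPM in the TDD+ABX mice. The CD+ABX mice lay above every CD mouse, but TDD mouse 2 lay within their range. Dnajc3 rose with ABX on CD by 0.39 ± 0.08 on the log2 scale (SE, q = 0.00247), and on TDD its log2 fold change was 0.07 ± 0.08 (SE, q = 0.586). Dnajc10 (ERdj5), Dnajc1 and Hspa13, also counted to the endoplasmic reticulum, did not pass with ABX on either diet.

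**Figure D3:**
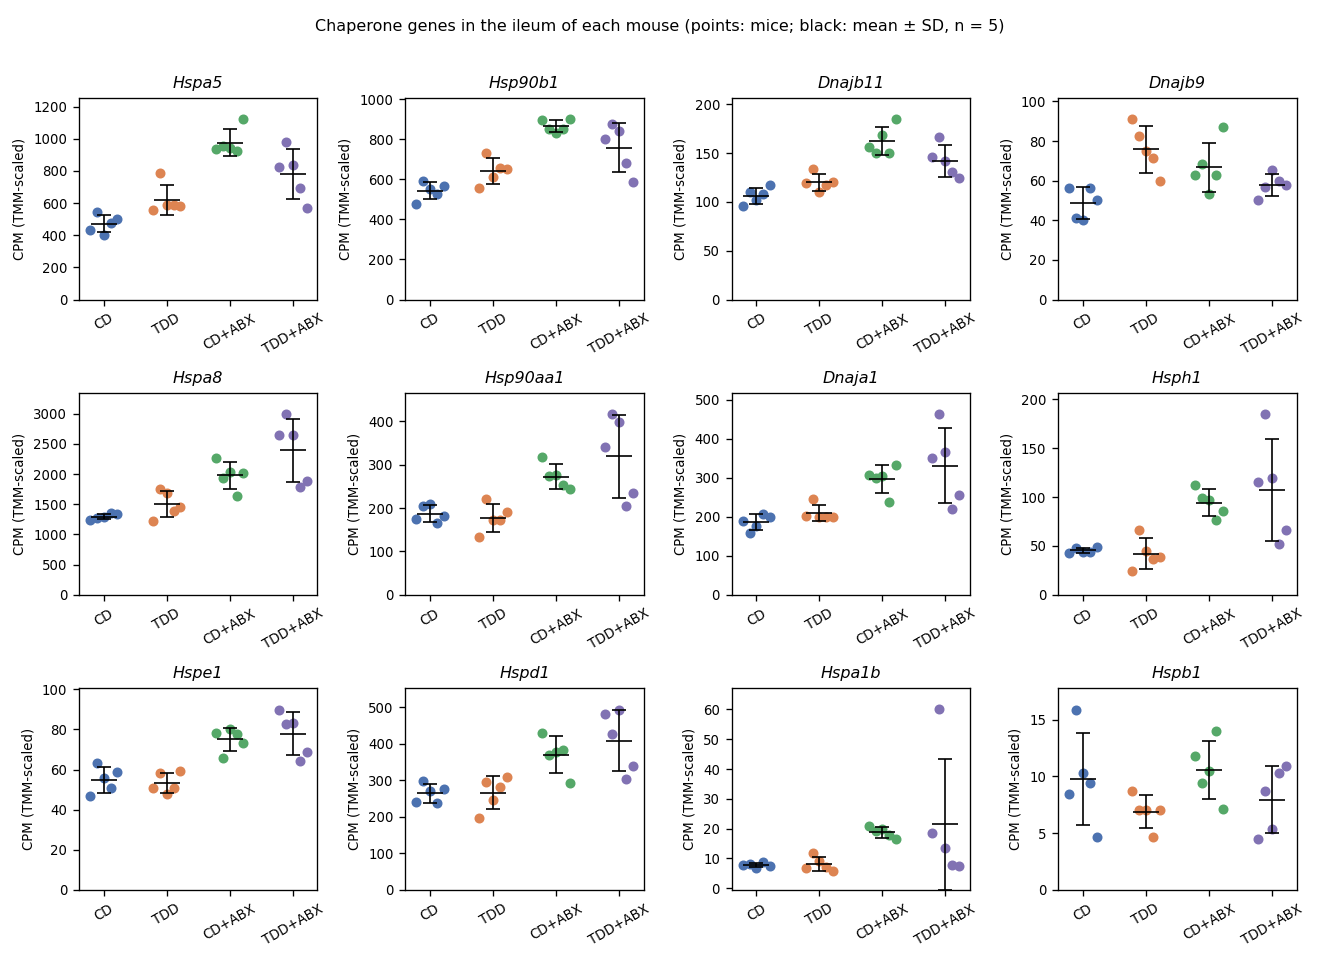
Level of 12 chaperone genes in each mouse, as TMM-scaled CPM on a linear axis, with the 4 groups of 5 mice on the horizontal axis and the mean ± SD in black. In the first 3 panels CD+ABX mice stood above the CD mice, as they did in Hspa8, Hsp90aa1, Dnaja1, Hsph1, Hspe1 and Hspa1b. In Hspa1b 1 TDD+ABX mouse, at 60.0 CPM, stood above all others, and in Hspb1 the groups overlapped.

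In the cytosol, Hspa8 carried most of the Hsp70 transcripts. Hspa8 was at 1239, 1265, 1281, 1351 and 1331 CPM in the 5 CD mice, 1229, 1755, 1691, 1381 and 1448 CPM in the TDD mice, 2262, 1941, 2040.0, 1636 and 2017 CPM in the CD+ABX mice and 2654, 2987, 2645, 1792 and 1884 CPM in the TDD+ABX mice. Both ABX groups lay above the SPF group on the same diet without overlap. Hspa8 rose with ABX by 0.61 ± 0.13 on CD (SE, q = 0.00573) and by 0.67 ± 0.13 on TDD on the log2 scale (SE, q = 0.00334).

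Hsph1, the Hsp110 that exchanges nucleotide on Hsp70, had the printed heat shock element just after its annotated start. Hsph1 was at 43.2, 47.5, 43.8, 43.9 and 48.5 CPM in the 5 CD mice, 23.9, 66.7, 44.3, 36.1 and 38.7 CPM in the TDD mice, 112, 99.4, 97.3, 76.1 and 85.9 CPM in the CD+ABX mice and 116, 184, 119.5, 51.99 and 65.9 CPM in the TDD+ABX mice. On CD the ABX-treated mice were all higher, and on TDD 2 of the 5, mice 4 and 5, did not exceed TDD mouse 2. Its log2 fold change was 1.05 ± 0.28 on CD (SE, q = 0.0192) and 1.36 ± 0.28 on TDD (SE, q = 0.0049). Dnajb6, which also carries the full element, passed in no comparison (lowest q = 0.508). Of the genes with the shorter pattern, Dnaja4, Dnajc27, Hspa1a, Hspb1, Hspb6 and Hspb8 also passed in none by edgeR without a covariate (lowest q of 0.1018 to 0.6179). Dnajc5g and Hspb3, which carry it too, were not tested.

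Hspa4 and Hspa4l are the other Hsp110-like genes. Hspa4 was at 173, 169.9, 182, 172 and 184 CPM in the 5 CD mice, 152, 188, 169, 167 and 185 CPM in the TDD mice, 206, 206, 208, 204 and 198 CPM in the CD+ABX mice and 222, 213, 229, 185 and 193 CPM in the TDD+ABX mice. Its rise with ABX was 0.22 ± 0.06 on CD (SE, q = 0.0311) and 0.27 ± 0.06 on TDD on the log2 scale (SE, q = 0.00931), with the call on CD lost in 10 of 34 alternative settings. Hspa4l was at 29.4, 25.2, 31.4, 28.7 and 28.6 CPM in the 5 CD mice, 22.2, 28.6, 25.3, 24.4 and 22.6 CPM in the TDD mice, 38.3, 33.6, 32.4, 32.8 and 27.9 CPM in the CD+ABX mice and 34.7, 44.9, 37.7, 27.3 and 29.1 CPM in the TDD+ABX mice. Hspa4l rose on TDD by 0.50 ± 0.11 on the log2 scale (SE, q = 0.00826), and its value on CD was 0.20 ± 0.11 (SE, q = 0.272). Hspa14, which works at the ribosome, rose on TDD by 0.19 ± 0.06 on the log2 scale (SE, q = 0.0363), a call lost in 9 of 34 alternative settings.

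The inducible genes Hspa1a and Hspa1b were followed because they respond most to heat. Hspa1b was at 7.91, 8.03, 6.72, 8.88 and 7.64 CPM in the 5 CD mice, 6.78, 11.8, 9.11, 7.24 and 5.97 CPM in the TDD mice, 21.1, 19.2, 19.8, 17.8 and 16.4 CPM in the CD+ABX mice and 18.5, 59.99, 13.5, 7.84 and 7.64 CPM in the TDD+ABX mice. The CD+ABX mice were all higher than the SPF mice, and among the TDD+ABX mice 1 animal, mouse 2, stood far above the rest while mice 4 and 5 lay within the SPF range. The log2 fold change of Hspa1b was 1.27 ± 0.42 on CD (SE, q = 0.0564), which did not pass, and 1.39 ± 0.42 on TDD (SE, q = 0.0333). The value on CD passed in 10 of 34 alternative settings (q = 0.0236 by DESeq2, 0.000154 with only CD and CD+ABX mice fitted and 0.00153 without TDD+ABX mouse 2). Without TDD+ABX mouse 2 the value on TDD was 0.54 (q = 0.136), and the call was lost in 13 of 34 alternative settings. Hspa1a was at 4.96, 6.17, 3.47, 4.77 and 4.08 CPM in the 5 CD mice, 3.92, 5.18, 6.86, 3.17 and 4.76 CPM in the TDD mice, 9.66, 9.23, 8.87, 6.77 and 6.43 CPM in the CD+ABX mice and 7.19, 23.3, 6.16, 3.92 and 4.69 CPM in the TDD+ABX mice. Hspa1a showed the same high mouse and did not pass on CD (0.80 ± 0.37, SE, q = 0.175) or on TDD (0.92 ± 0.37, SE, q = 0.102).

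Hsp90aa1 and Hsp90ab1 are the cytosolic Hsp90 pair. Hsp90aa1 was at 175, 205, 209, 167 and 182 CPM in the 5 CD mice, 133, 222, 172, 172 and 191 CPM in the TDD mice, 317, 275, 276, 253 and 243 CPM in the CD+ABX mice and 342, 416, 398, 206 and 234 CPM in the TDD+ABX mice. Hsp90aa1, the more inducible of the pair, rose with ABX by 0.54 ± 0.17 on CD (SE, q = 0.0387) and by 0.84 ± 0.17 on TDD on the log2 scale (SE, q = 0.00348). The call on CD was lost in 11 of 34 alternative settings. Hsp90ab1 was at 658, 825, 708, 622 and 718 CPM in the 5 CD mice, 626, 805, 783, 776 and 763 CPM in the TDD mice, 935, 828, 839, 805 and 711 CPM in the CD+ABX mice and 1122, 1240.0, 1184, 842 and 837 CPM in the TDD+ABX mice. Hsp90ab1 rose on TDD by 0.48 ± 0.12 on the log2 scale (SE, q = 0.011), where all TDD+ABX mice lay above all TDD mice, and on CD its value was 0.22 ± 0.12 (SE, q = 0.232). The difference of the ABX effect between diets was 0.26 ± 0.16 (SE, q = 0.704), so the diets were not shown to differ.

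Of the cytosolic DnaJ genes, Dnaja1 is an abundant partner of Hspa8. Dnaja1 was at 188, 158, 176, 208 and 199 CPM in the 5 CD mice, 201, 246, 198, 199 and 199.5 CPM in the TDD mice, 307, 300.4, 305, 237 and 333 CPM in the CD+ABX mice and 351, 462, 367, 219.6 and 255 CPM in the TDD+ABX mice. CD+ABX mice did not overlap CD mice, and TDD+ABX mouse 4 lay within the range of the TDD mice. Dnaja1 rose by 0.67 ± 0.15 on CD (SE, q = 0.007) and by 0.66 ± 0.15 on TDD on the log2 scale (SE, q = 0.00803). Dnaja2 was at 128, 113, 126, 131 and 138 CPM in the 5 CD mice, 117, 127, 123, 118 and 125 CPM in the TDD mice, 133, 130.1, 134, 134 and 144 CPM in the CD+ABX mice and 152, 145, 149, 135 and 144 CPM in the TDD+ABX mice. Dnaja2, a second partner of Hspa8, rose on TDD by 0.25 ± 0.05 on the log2 scale (SE, q = 0.00411), and on CD it stood at 0.08 ± 0.05 (SE, q = 0.322).

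Dnajb2 was at 20.8, 20.96, 22.2, 18.5 and 18.2 CPM in the 5 CD mice, 18.4, 21.4, 20.2, 22.9 and 20.4 CPM in the TDD mice, 25.1, 23.8, 25.6, 30.1 and 29.2 CPM in the CD+ABX mice and 24.4, 28.4, 23.6, 25.3 and 25.1 CPM in the TDD+ABX mice. Dnajb2, which carries ubiquitin-interacting motifs, was higher in every ABX-treated mouse than in every SPF mouse on the same diet. It rose by 0.41 ± 0.08 on CD (SE, q = 0.00217) and by 0.30 ± 0.08 on TDD on the log2 scale (SE, q = 0.0161). Dnajb1, the classical inducible Hsp40, had log2 fold changes of 0.23 ± 0.09 on CD (SE, q = 0.127) and 0.23 ± 0.09 on TDD (SE, q = 0.112), neither of which passed. Dnajb4, its close relative, stood at 0.00 ± 0.07 and 0.15 ± 0.07 (SE, q = 0.988 and 0.123). Dnajb1 values lay between 29.3 and 50.1 CPM, and those of Dnajb4 between 18.7 and 25.4 CPM, over all 20 mice.

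In the mitochondria, Hspd1 (Hsp60) and Hspe1 (Hsp10) form the chaperonin in which imported proteins fold. Hspd1 was at 239.9, 298, 271, 238 and 277 CPM in the 5 CD mice, 196, 297, 246, 281 and 309.8 CPM in the TDD mice, 431, 369.6, 378, 384 and 292 CPM in the CD+ABX mice and 481, 427, 494, 304 and 339 CPM in the TDD+ABX mice. Hspe1 was at 46.7, 63.1, 55.7, 50.6 and 58.99 CPM in the 5 CD mice, 50.6, 58.3, 47.7, 50.7 and 59.5 CPM in the TDD mice, 78.2, 65.8, 80.5, 77.96 and 73.3 CPM in the CD+ABX mice and 89.9, 82.95, 82.99, 64.5 and 68.6 CPM in the TDD+ABX mice. In Hspe1 both ABX groups stood clear of the SPF mice on the same diet, and in Hspd1 the groups met at CD+ABX mouse 5 and at TDD+ABX mouse 4. Hspe1 rose by 0.45 ± 0.10 on CD (SE, q = 0.00566) and by 0.54 ± 0.10 on TDD on the log2 scale (SE, q = 0.00192). Hspd1 rose by 0.49 ± 0.14 on CD (SE, q = 0.0291) and by 0.62 ± 0.14 on TDD on the log2 scale (SE, q = 0.00789), and its call on CD was lost in 9 of 34 alternative settings.

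Dnaja3 was at 56.01, 56.9, 58.1, 51.5 and 58.4 CPM in the 5 CD mice, 44.2, 55.01, 45.8, 51.1 and 54.9 CPM in the TDD mice, 59.7, 56.02, 59.3, 59.4 and 51.5 CPM in the CD+ABX mice and 68.03, 61.5, 66.9, 58.1 and 55.01 CPM in the TDD+ABX mice. Dnaja3, the mitochondrial partner of Hspa9, rose with ABX on TDD by 0.30 ± 0.07 on the log2 scale (SE, q = 0.00969), although the highest TDD and the lowest TDD+ABX mouse were both at 55.01 CPM. On CD its value was 0.03 ± 0.07 (SE, q = 0.868). Dnajc11 was at 56.3, 66.98, 62.6, 54.1 and 65.7 CPM in the 5 CD mice, 48.6, 59.7, 55.8, 54.2 and 65.1 CPM in the TDD mice, 67.3, 70.1, 76.3, 70.5 and 64.8 CPM in the CD+ABX mice and 75.8, 72.9, 80.3, 65.9 and 62.2 CPM in the TDD+ABX mice. Dnajc11, a mitochondrial membrane protein, rose on TDD by 0.33 ± 0.08 on the log2 scale (SE, q = 0.0126), and on CD it stood at 0.19 ± 0.08 (SE, q = 0.141). Hspa9 (mortalin), the mitochondrial Hsp70, did not pass with ABX on CD (0.11 ± 0.08, SE, q = 0.387) or on TDD (0.12 ± 0.08, SE, q = 0.299).

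The gene that fell with ABX was Dnajc28, for which no function is firmly known. Its level was low, with 5.77 to 7.77 CPM in CD mice and 3.19 to 6.50 CPM in CD+ABX mice. Its log2 fold change on CD was -0.52 ± 0.15 (SE, q = 0.0272), a call lost in 7 of 34 alternative settings, and on TDD it was -0.34 ± 0.15 (SE, q = 0.134).

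Grouped by place in the cell, 6 of the 28 tested genes assigned to cytosol and nucleus rose with ABX on CD and 11 on TDD, where 5.26% and 7.14% of all genes rose. Of the 8 mitochondrial genes, 2 rose on CD and 4 on TDD. Of the 8 genes assigned to the endoplasmic reticulum, 5 rose on CD and 1 on TDD. These 8 are a chosen list that need not hold every gene of this compartment. Dnajb12, Dnajb14, Dnajc18 and Dnajc25 were not among them and passed in no comparison (lowest q of 0.134 to 0.264). The other 21 tested genes were assigned to no compartment, and none of them rose with ABX on either diet by edgeR. Plasma cells are secretory cells rich in endoplasmic reticulum, and their 4 markers summed to 1430 to 2497 CPM in CD mice, 1556 to 3347 CPM in TDD mice, 865 to 1563 CPM in CD+ABX mice and 1121 to 1499 CPM in TDD+ABX mice. Of the 4 markers 1 fell with ABX on CD and 4 on TDD, and 3 rose on TDD without ABX, and their part in the results was not tested. Summed goblet cell markers overlapped between all groups (4069 to 7039 CPM), as did Paneth cell markers (3636 to 8587 CPM). Of the 4 goblet cell markers 1 fell on TDD without ABX (-0.978) and 1 rose with ABX on TDD (0.652), and of the 4 Paneth cell markers 1 rose (0.842) and 1 fell (-0.773) in the same comparisons. All 3 macrophage markers fell with ABX on CD and on TDD without ABX, and 1 fell with ABX on TDD. Of the 4 T cell markers 2 fell with ABX on each diet, of the 8 epithelial markers 2 rose with ABX on each diet, and of the 3 endothelial markers 2 fell with ABX on TDD. Of the 4 fibroblast markers 3 fell on TDD both without and with ABX. By edgeR 0 smooth muscle and 0 B cell markers passed in any comparison. The 5 B cell markers nevertheless had a median log2 fold change of -2.05 with ABX on CD and -1.576 with ABX on TDD. For diet their median was 1.26 without ABX and 1.846 with ABX. In these 4 comparisons 5, 0, 0 and 3 of them had an unadjusted p under 0.05. The part of these cell types in the results was not tested. The median log2 fold change of the endoplasmic reticulum group was 0.425 on CD and 0.066 on TDD, while that of the mitochondrial genes was 0.125 and 0.22.

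Diet alone, without ABX, moved fewer of the genes. On TDD 5 of the 65 chaperone genes were higher than on CD at q under 0.05 and 1 was lower, where 6.65% of all genes rose and 7.71% fell. By edgeR 0 of the 65 were changed at least 2-fold, against 1.83% of all genes, and DESeq2, limma-voom and limma on TPM also gave 0. At an unadjusted p under 0.05 there were 14, where 28.4% of all genes reached it. The median was 0.035 over the 65 genes and 0.013 over all genes. The mice did not overlap in 6 genes, of which 5 were higher on TDD, where 9.58% of all genes did not overlap. The count of 6 fell to 3 without CD mouse 5, to 2 when only CD and TDD mice were fitted, and rose to 13 with the smooth muscle markers as a covariate. Calls over all genes moved too. In the main fit 1085 genes rose and 1257 fell, and these fits gave 1576, 1391 and 2837 calls in either direction.

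Dnajb9 was at 56.2, 41.1, 39.98, 56.1 and 50.3 CPM in the 5 CD mice, 91.03, 82.5, 74.9, 71.2 and 59.8 CPM in the TDD mice, 62.8, 68.2, 53.3, 62.95 and 86.9 CPM in the CD+ABX mice and 50.03, 56.6, 65.4, 59.9 and 57.6 CPM in the TDD+ABX mice. Dnajb9, the DnaJ protein of the endoplasmic reticulum that is strongly induced by unfolded proteins, had the largest rise among the genes that passed. All TDD mice lay above all CD mice, and with ABX the diets overlapped. It rose on TDD by 0.64 ± 0.13 on the log2 scale (SE, q = 0.00331), and past the threshold in all 34 alternative settings. With ABX it rose on CD by 0.46 ± 0.13 (SE, q = 0.0282), a call lost in 7 of 34 alternative settings, and on TDD its value was -0.39 ± 0.13 (SE, q = 0.0503).

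Hspa5, with the mice given above, rose on TDD by 0.40 ± 0.13 on the log2 scale (SE, q = 0.0404). The call was lost in 20 of 34 alternative settings, and without TDD mouse 2, the highest of its group, the value was 0.30 (q = 0.12). Hspa13 (Stch), an Hsp70 without a substrate-binding domain, was at 25.2 to 31.4 CPM in CD mice and 33.9 to 40.2 CPM in TDD mice and rose by 0.30 ± 0.09 on the log2 scale (SE, q = 0.0237). Its call was lost in 6 of 34 alternative settings. Dnajc5 (cysteine string protein), which sits on secretory vesicles, was at 99.2 to 130 CPM in CD mice and 138 to 168 CPM in TDD mice and rose by 0.30 ± 0.08 on the log2 scale (SE, q = 0.0209). Its call was lost in 5 of 34 alternative settings.

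Dnajc16 was at 21.3, 20.2, 20.8, 21.8 and 20.6 CPM in the 5 CD mice, 23.1, 21.8, 23.9, 24.1 and 24.3 CPM in the TDD mice, 22.6, 22.7, 22.3, 23.5 and 22.7 CPM in the CD+ABX mice and 22.5, 22.1, 21.1, 23.3 and 22.7 CPM in the TDD+ABX mice. In Dnajc16 the TDD mice exceeded the CD mice, with TDD mouse 2 and CD mouse 4 both at 21.8 CPM, and the rise was 0.16 ± 0.04 on the log2 scale (SE, q = 0.0134). The call of Dnajc16 was lost in 5 of 34 alternative settings. Dnajc15 was at 18.3, 19.3, 21.2, 15.4 and 18.1 CPM in the 5 CD mice, 15.7, 15.98, 13.4, 14.7 and 15.4 CPM in the TDD mice, 19.1, 16.9, 20.03, 19.3 and 18.1 CPM in the CD+ABX mice and 17.2, 15.4, 16.5, 15.9 and 17.8 CPM in the TDD+ABX mice. Dnajc15, of the mitochondrial inner membrane, was the gene that fell, with a log2 fold change of -0.29 ± 0.08 (SE, q = 0.0129), and its groups met only at CD mouse 4, the lowest of the CD mice. The call of Dnajc15 was lost in 3 of 34 alternative settings. Most of its TPM (78.7% on average) belonged to a form annotated as a target of nonsense-mediated decay.

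With ABX, 0 of the 65 genes differed between the diets at q under 0.05 by edgeR, where 0.626% of all genes rose and 1.02% fell and 0.307% changed at least 2-fold. At an unadjusted p under 0.05 there were 8, 4 in each direction, where 14.7% of all genes reached it, and DESeq2, limma-voom and limma on TPM also gave 0. The median was 0.002 over the 65 genes and -0.003 over all genes. In 1 gene the mice did not overlap (Dnajb7, a low gene), where 4.78% of all genes did not overlap. Without TDD+ABX mice 4 and 5 the count was 1, Hsp90ab1, at a log2 fold change of 0.53 (q = 0.0384).

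The difference between the 2 diet effects was tested as an interaction. By edgeR 0 of the 65 genes passed at q under 0.05, where 0.0368% of all genes did. At an unadjusted p under 0.05 there were 10, of which 8 were negative, meaning a lower diet effect with ABX than without, and 2 were positive, where 4.63% and 4.24% of all genes were. Of the 8 negative genes 6 were among those assigned to the endoplasmic reticulum. Dnajb9 had the lowest q, with a log2 difference of -0.84 ± 0.19 (SE, q = 0.1), followed by Hspa5 with -0.72 ± 0.18 (SE, q = 0.146). DESeq2 called both, at q = 0.00929 and 0.0188, so their call depended on the test, and limma-voom and limma on TPM gave 0 calls.

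In the endoplasmic reticulum group, of which no gene passed in the interaction by edgeR, the diet value without ABX was positive in 7 of 8 genes with a median of 0.207, and with ABX in 2 of 8 with a median of -0.192. These counts hold for the chosen list of 8, which left out Dnajb12, Dnajb14, Dnajc18 and Dnajc25. Hsp90b1 stood at 0.24 ± 0.10 without ABX (SE, q = 0.111) and -0.19 ± 0.10 with ABX (SE, q = 0.371). Dnajc3 stood at 0.12 ± 0.08 (SE, q = 0.33) and -0.21 ± 0.08 (SE, q = 0.179). None of the 4 values passed, and the interaction of neither gene did (q = 0.306 and 0.313).

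**Figure D4:**
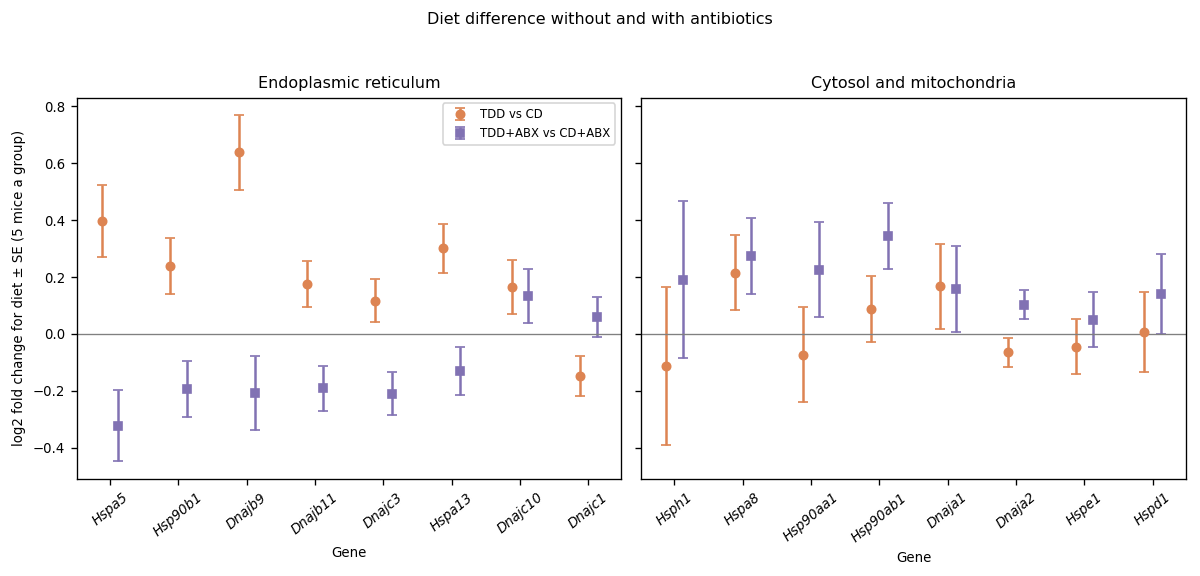
Log2 fold change for diet (vertical axis, ± SE, 5 mice a group) without ABX (circles) and with ABX (squares). Shown are the 8 genes assigned to the endoplasmic reticulum and 8 genes of the cytosol and mitochondria. In the first panel Hspa5 lay at 0.40 and -0.32 and Dnajb9 at 0.64 and -0.21, while Dnajc10 was positive in both, and in the second panel the values lay between -0.11 and 0.34.

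Genes outside the families were followed from lists of their partners, also chosen with earlier results of these data known. Of 20 tested genes of endoplasmic reticulum stress, 14 rose and 0 fell with ABX on CD, where 5.26% of all genes rose and 7.37% fell. On TDD 4 rose and 0 fell, where 7.14% of all genes rose and 8.22% fell. Among them were Sdf2l1, a cofactor of Hspa5 (1.05 ± 0.16 on CD and 0.49 ± 0.15 on TDD, SE, q = 0.000451 and 0.0382), and the folding factor Creld2 (0.97 ± 0.12 and 0.41 ± 0.12, SE, q = 0.000126 and 0.0315). Hyou1, the large Hsp70 relative of this compartment, rose on CD by 0.91 ± 0.13 (SE, q = 0.000412), and on TDD it stood at 0.23 ± 0.13 (SE, q = 0.256). On TDD without ABX 7 of the 20 rose and 2 fell, where 6.65% of all genes rose and 7.71% fell, with Xbp1, a transcription factor of the unfolded protein response, at 0.38 ± 0.08 (SE, q = 0.00222) and Atf4, a second such factor, at -0.34 ± 0.10 (SE, q = 0.0369). With ABX the diet lowered 1 of the 20, Syvn1, where 1.02% of all genes fell.

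Of 30 tested co-chaperones and regulators of Hsp70 and Hsp90, 8 rose and 0 fell with ABX on CD, and 11 rose and 1 fell on TDD, against 5.26% and 7.37% of all genes on CD and 7.14% and 8.22% on TDD. Stip1 (Hop), which links Hsp70 to Hsp90, rose by 0.47 ± 0.12 on CD (SE, q = 0.0119) and by 0.71 ± 0.12 on TDD (SE, q = 0.00118). Chordc1, an Hsp90 partner, rose by 0.48 ± 0.13 (SE, q = 0.0217) and 0.62 ± 0.13 (SE, q = 0.00551). Bag3, a classical target of Hsf1, stood at -0.01 ± 0.09 on CD (SE, q = 0.979) and -0.15 ± 0.09 on TDD (SE, q = 0.292). Hsf1 itself fell on TDD without ABX (-0.29 ± 0.09, SE, q = 0.0394) and rose with ABX on TDD (0.38 ± 0.09, SE, q = 0.00945).

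The largest change in this list was in Fkbp5, an Hsp90 partner known as a target of the glucocorticoid receptor. It was at 17.9 to 46.6 CPM in CD mice and 187 to 201 CPM in TDD mice, and at 71.4 to 144 and 98.2 to 184 CPM in the same diets with ABX. It rose on TDD by 2.67 ± 0.25 on the log2 scale (SE, q = 8.03e-06) and with ABX on CD by 1.55 ± 0.24 (SE, q = 0.000728). Its interaction was -1.92 ± 0.34 (SE, q = 0.0496), the only one of the 30 that passed. The value was negative in all 33 alternative settings, from -2.12 to -1.67, but it passed in 11 and was lost in 22 (q = 1.52e-05 by DESeq2 and 0.0621 by limma-voom).

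Of 19 tested other chaperones, 1 rose and 1 fell with ABX on CD and 6 rose and 1 fell on TDD, among them 4 subunits of the cytosolic chaperonin (Cct3, Cct5, Cct7 and Cct8), against the same shares of all genes. On TDD without ABX 3 rose and 1 fell, against 6.65% and 7.71% of all genes, and with ABX the diet changed 0 at q under 0.05 and 6 at an unadjusted p under 0.05. Of 12 tested immediate early genes, which respond to handling of the tissue, 1 (Ier3) rose on TDD without ABX and 0 passed in the other 3 comparisons, where 0 to 3 had an unadjusted p under 0.05. Cirbp and Rbm3, RNA-binding proteins that rise in the cold, were higher on TDD. Cirbp rose by 0.90 ± 0.10 without ABX (SE, q = 2.78e-05) and 0.50 ± 0.10 with ABX (SE, q = 0.0192), and Rbm3 by 0.99 ± 0.10 (SE, q = 1.15e-05) and 0.72 ± 0.10 (SE, q = 0.00185). With ABX 1 of the 2 fell at q under 0.05 on CD and 1 on TDD, where 7.37% and 8.22% of all genes fell. The log2 fold changes of the 2 genes were -0.321 and -0.022 on CD and -0.716 and -0.298 on TDD.

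Of the 8 small heat shock proteins 6 were tested, and by edgeR 0 differed between the groups at q under 0.05 in any comparison, with 0 at an unadjusted p under 0.05. DESeq2, limma-voom and limma on TPM gave 0 calls for Hspb1, Hspb6 and Hspb8. They varied instead between the mice of a group. Hspb1 (Hsp27) ranged from 4.65 to 15.9 CPM, Hspb6 (Hsp20) from 4.51 to 21.6 CPM and Hspb8 (Hsp22) from 2.61 to 18.6 CPM within the CD mice alone, more than the group means were apart. The group means of Hspb1 were 9.76, 6.90, 10.6 and 7.96 CPM in CD, TDD, CD+ABX and TDD+ABX mice. Hspb6 and Hspb8 are known from smooth and other muscle, and CD mouse 2 had the highest and CD mouse 5 the lowest level of the CD group in all 3 genes.

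Across the 20 mice, the log2 level of 10 of the 65 genes correlated with the mean log2 level of 9 smooth muscle markers at an adjusted p under 0.05, by Pearson's r as by Spearman's rho, all positively (permutation tests with 100000 permutations, adjusted over the 65 relations computed). Of the 10, 7 had r over 0.8, namely Hspb6, Hspb8, Hspb1, Hspb7, Dnajb5, Hspa2 and Hspb2, and the other 3 were Dnajc6, Dnaja4 and Dnajc27. In Hspb6 r was 0.96 and rho 0.933 (permutation p = 1e-05 for each, the smallest these permutations can give, adjusted p = 9.3e-05 and 0.00016). In Hspb8 r was 0.923 and rho 0.895, and in Hspb1 r was 0.907 and rho 0.835. Without the 2 mice farthest from the median of the markers, CD mouse 5 and TDD+ABX mouse 3, r was 0.937, 0.877 and 0.890 in these 3 genes, and within the groups it was 0.98, 0.979 and 0.956. The gene and the markers come from the same library, so they share its depth. Of the small heat shock proteins, only Hspb1, Hspb6 and Hspb8 were read singly in a fit with the marker level as a covariate. They passed on TDD without ABX, Hspb1 at -0.44 (q = 0.00432), Hspb6 at -0.25 (q = 0.0445) and Hspb8 at 0.68 (q = 0.000268). In that fit Hspb8 also passed with ABX on TDD, at -0.40 (q = 0.013).

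**Figure D5:**
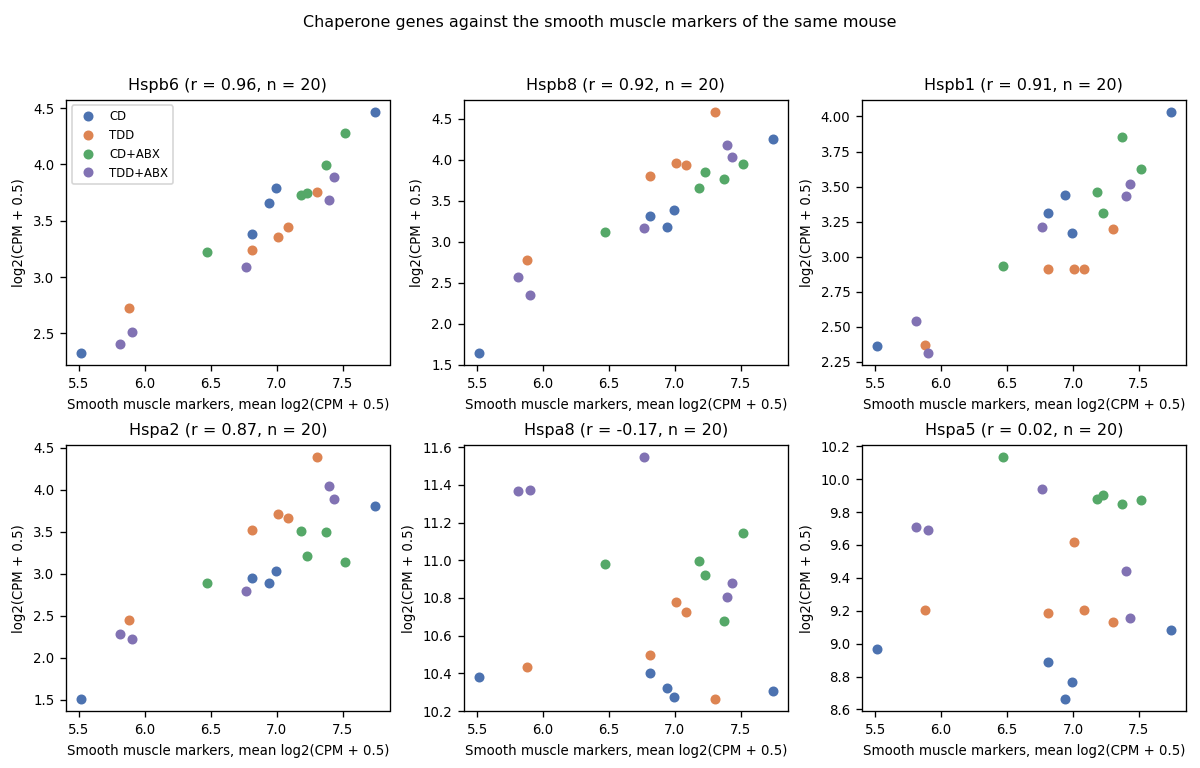
Log2 level of 6 chaperone genes (vertical axes) against the mean log2 level of 9 smooth muscle markers (horizontal axes) in the same 20 mice, coloured by group, with Pearson's r in each title. Hspb6, Hspb8, Hspb1 and Hspa2 were higher where the markers were higher (r of 0.87 to 0.96), while r was -0.17 in Hspa8 and 0.02 in Hspa5.

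Of the genes that rose with ABX, Hspa8 had an r of -0.169 with the muscle markers over the 20 mice (permutation p = 0.48, adjusted p = 0.79) and Hspa5 of 0.016 (permutation p = 0.95, adjusted p = 0.97). Within the groups, given as a description, r was negative in both, at -0.362 in Hspa8 and -0.322 in Hspa5. It was also negative within the groups in Dnaja1 (-0.489), Dnajc3 (-0.499), Hspa4 (-0.507) and Dnaja2 (-0.685). TDD+ABX mice 4 and 5, which were the lowest of their group in Hspa8, Hsph1, Hsp90aa1, Dnaja1, Hspa5 and Hspa1b, had summed muscle markers of 2226 and 2250 CPM against 695 to 1359 CPM in the other 3. Whether these values are connected was not tested. Without these 2 mice, 24 genes passed with ABX on TDD in place of 16, and 5 in place of 2 were at least 2-fold. The 2 mice were left out after their low values were seen, so higher ABX values in these genes follow from that choice. Over all genes 3266 passed in that fit, where 1164 rose and 1341 fell in the main fit. With the muscle markers as a covariate, 16 genes passed with ABX on CD and 19 on TDD, and with the B cell markers 12 and 16. Over all genes there were 2493 and 2827 calls with the muscle markers and 1789 and 1796 with the B cell markers.

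Transcript forms within the genes were compared as shares of a gene's TPM. In Hspa5 the main coding form (Hspa5-202) took 82.4% on average, with group means of 81.8% to 82.9%, and a form annotated for nonsense-mediated decay took 14.3%. Hspa8 was divided between 2 coding forms, Hspa8-202 with 45.8% and Hspa8-201 with 45.3%, and no single form led in all groups. Hsph1 had 1 coding form at 36.4% and a form with a retained intron at 26.3%. In Dnajb2 a coding form (Dnajb2-207) took 37.7% ± 6.5 in CD and 22.3% ± 7.5 in TDD mice, and 45.2% ± 3.3 and 36.8% ± 5.5 with ABX (SD, n = 5 each), as kallisto divided the reads and without a test. In TDD mice another coding form, Dnajb2-210, took the higher mean share, at 28.7%. Hspe1, Hsp90ab1, Hspb1 and Dnajb1 were almost wholly of 1 form, at 96.7% to 99.5% in the group means.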

How the data were processed

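Ileum RNA from 20 mice was sequenced as poly-A libraries, and the authors pseudoaligned the reads with kallisto 0.44.0 to the mouse transcriptome (GRCm38, mm10). The deposited files hold estimated counts per gene, rounded to whole numbers, and TPM per transcript. Reads shared by near-identical transcripts are divided by estimation, so Hspa1a and Hspa1b, and genes with processed pseudogenes, carry uncertain counts.

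A gene entered the test when any mouse reached 0.5 CPM, which left 16306 genes. Counts were TMM-scaled and tested with edgeR 4.0.16 (quasi-likelihood, robust, R 4.3.3), with 4 groups in 1 fit and Benjamini-Hochberg adjustment over these genes (q). DESeq2 1.42.0, limma-voom and limma 3.58.1 on log2(TPM + 1) were alternatives. The steps were tested on simulated data. TPM per gene is the sum over its transcripts.

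Members and lists were chosen with earlier results of these data known. Named were all members past q of 0.05, a preset list of 21 chaperones, the highest and lowest of each class and those not tested. Every mouse is given for the 20 with the lowest q. Dnajb6, Dnajb7, Dnajb12, Dnajb14, Dnajc1, Dnajc7, Dnajc10, Dnajc18, Dnajc25 and Hspb11 were added after their values were seen. So were the genes named for their correlation with muscle markers beyond Hspb1, Hspb6 and Hspb8. Promoters are from RefSeq, GRCm38.p6.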

Additional observations from a re-analysis of the deposited data

Results flagged for a closer look

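In 9 of 136 groups of 5 mice, 1 mouse stood apart from the other 4 by Dixon's criterion, where chance flags about 1 group in 20. TDD mouse 2 was high in Hspa5 (785 CPM, the others 560 to 590), in Dnaja1 (246 CPM, the others 198 to 201) and in Dnajc3 (164 CPM, the others 131 to 139). TDD mouse 1 was high in Dnajc5 (168 CPM, the others 138 to 146) and low in Hsp90ab1 (626 CPM, the others 763 to 805). CD+ABX mouse 5 was high in Hspa5 (1120 CPM, the others 923 to 957) and in Dnaja2 (144 CPM, the others 130 to 134). TDD+ABX mouse 2 was high in Hspa1b (60 CPM, the others 7.64 to 18.5) and in Hspa1a (23.3 CPM, the others 3.92 to 7.19).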

How the results depend on the processing

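Of 36 called values of named genes, 22 passed in all 33 or 34 alternative settings, 14 were lost in some and 0 changed sign. Of 98 values with an unadjusted p of at least 0.05, 39 changed sign in some setting, so the printed sign of such a value is uncertain. The fits with smooth muscle or B cell markers as a covariate, and without TDD+ABX mice 4 and 5, were chosen after seeing the data.

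For diet without ABX the 6 calls became 3 in limma on log2(TPM + 1), 2 on log2(TPM + 0.1), 2 with only the 2 groups compared and 13 with the muscle covariate, and 3 to 6 when 1 mouse was left out (3 without CD mouse 5). Over all genes the same fits gave 2258, 2211, 1391 and 2837 calls, and 1576 to 3098 when 1 mouse was left out. For diet with ABX the 0 calls became 1 without TDD+ABX mice 4 and 5. For ABX on CD the 14 calls ranged from 10 to 16 when 1 mouse was left out, and the 2 calls of at least 2-fold from 1 (without CD+ABX mouse 1 or 5) to 3. For ABX on TDD the 16 calls became 25 in both TPM fits and 12 to 20 with 1 mouse left out. There the 2 calls of at least 2-fold became 1 with no filter, limma-voom, both TPM fits, the replicate block, only 2 groups or the B cell covariate, and 5 without TDD+ABX mice 4 and 5. They ranged from 1 (without TDD mouse 1, 3, 4 or 5 or TDD+ABX mouse 1 or 2) to 3 with 1 mouse left out. The interaction gave 2 calls by DESeq2 and 1 with the B cell covariate, in place of 0. Over all genes, calls for diet with ABX were 68 without TDD+ABX mice 4 and 5. Calls for ABX on TDD were 3161 and 3132 in the TPM fits. With 1 mouse left out, calls for ABX were 1436 to 2521 on CD and 1367 to 3154 on TDD. The interaction gave 134 calls over all genes by DESeq2 and 13 with the B cell covariate. Causes of these shifts were not tested.

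The main fit did not pair mice by number. Of 30 same-number pairs, 5 deviated together with r over 0.1 (range -0.417 to 0.289). Pairs of different number were not set beside them, so this check cannot exclude a shared cage or batch. With the replicate block the calls were 6 for diet without ABX, 0 with ABX, 12 and 13 for ABX on CD and TDD, and 0 for the interaction. Over all genes the block gave 1819, 113, 1651, 2025 and 0 calls in the same order.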
